A study of Glycyrrhiza uralensis with 15 samples.

Results

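The comparison described here sets droughted seedlings of Glycyrrhiza uralensis, the licorice plant, that were given both a bacterium and silicon (DBSi, 3 libraries) against watered seedlings given neither (CK, 3 libraries). These 6 libraries are part of a series of 15. Of the 30197 genes in the deposited table, 22654 had 1 CPM (a gene's reads scaled to a fixed library total) or more in at least 3 of the 15 libraries, and these were tested. The sand of CK plants was kept at 65 to 75% of its saturation moisture, and that of droughted plants without any addition (D, 3 libraries) at 35 to 45%. DBSi plants carry the drought label and received Bacillus pumilus strain G5 together with silicon, at a moisture and a silicon dose not given in the sources used here. Droughted plants with G5 alone (DB) or with 2 mM silicon alone (DSi), 3 libraries each, are used below for reference. All groups were grown from 60 seeds to a pot of 1900 g of sterilized, nutrient-free desert sand and were sampled as whole plants at 45 days. The labels name no separate pots for the replicates, so the p-values reflect library-to-library spread, part of which may be technical.

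Plants that run short of water close their stomata, accumulate abscisic acid and compatible solutes, and change the expression of many genes. Some soil bacteria of the genus Bacillus promote plant growth and are applied to roots as inoculants, and silicon, taken up as silicic acid, is deposited in cell walls and is applied to crops against drought. The roots and underground stems of licorice are harvested for glycyrrhizin, a sweet triterpene saponin, and for flavonoids. Whether a treatment brings the transcripts of droughted plants back to the level of watered plants, or takes them to a level of its own, is the question this comparison addresses. The files hold gene IDs and do not pair them with names. Genes are therefore given by ID with no function, and neither organ markers nor pathway lists could be looked up.

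The CK libraries held 3089958 to 3514137 reads assigned to genes and the DBSi libraries 3222338 to 3506836, so that 1 CPM stood for 4 to 5 reads. Genes with at least 1 read numbered 24912 ± 288 (SD, n = 3) in CK and 24156 ± 384 (SD, n = 3) in DBSi. The 2 groups did not overlap in this count, and the exact permutation test gave p = 0.1, two-sided, the smallest p that 3 libraries against 3 allow. The 100 most abundant genes took 24.5% ± 1.7 of reads in CK and 24.6% ± 1.87 in DBSi (SD, n = 3; exact permutation test, two-sided p = 1). Spearman correlations across genes ran from 0.914 to 0.931 among CK libraries, from 0.934 to 0.951 among DBSi libraries and from 0.866 to 0.913 between the groups. Some CK libraries were closer to droughted libraries than to each other. CK-1 correlated at 0.943 with DB-1 and CK-3 at 0.942 with D-2, while CK-2 had its highest value, 0.931, with CK-1. The library CK-2 stood apart from the rest. It held 55 genes at 10 CPM or more that were at least 10 times as high there as in any other library, and these took 1.74% of its reads, whereas the other 14 libraries held between 0 and 9 such genes. Of the 55 genes, 10 were tested and 1 of these was called in the comparison below. Because whole seedlings were sampled, fewer cells of a type and less RNA per cell cannot be told apart in any result below.

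DBSi differed from CK at 1347 genes, 750 higher and 597 lower, which is 5.95% of the genes tested (3.31% higher and 2.64% lower; limma, adjusted p below 0.05). The rises were larger than the falls. The median log2 difference was 1.76 among the higher genes and -1.24 among the lower ones, while the median over all tested genes was -0.11. A log2 difference of 3 or more was seen for 91 of the higher and 33 of the lower genes. Among the higher genes, the median of the mean levels was 14.6 CPM in CK and 51.5 CPM in DBSi. Among the lower genes it was 30.1 CPM in CK and 11.9 CPM in DBSi. In the CK libraries, 10 of the higher genes had no read at all, and 8 of the lower genes had none in the DBSi libraries. The libraries of the 2 groups did not overlap in 749 of the 750 higher and 595 of the 597 lower genes, where 9.6% of all tested genes had every DBSi library above every CK library and 15.4% every DBSi library below. The 750 higher genes together took 2.51 to 2.68% of reads in the CK libraries and 8.47 to 9.24% in the DBSi libraries, and the 597 lower genes took 4.13 to 5.1% and 1.74 to 1.97%. These sums describe genes chosen on the same libraries and carry no test. Of the 1347 genes, 110 (8.17%) carried an ID of the ONT series, against 10.2% of all genes tested.

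**Figure D1:**
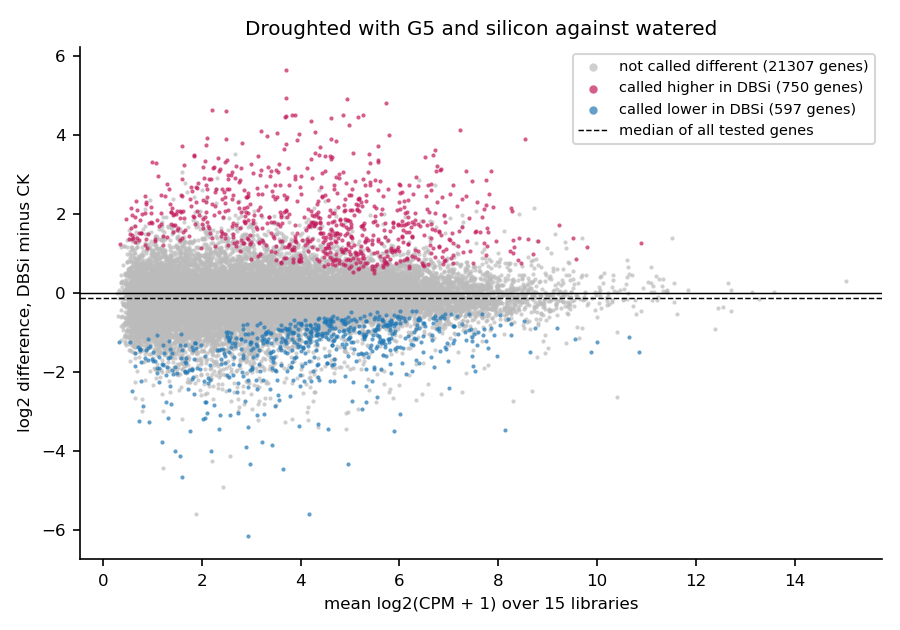
Each point is a tested gene, placed by its mean log2(CPM + 1) over 15 libraries (x axis) and its log2 difference between DBSi and CK (y axis). The 750 genes called higher and the 597 called lower spread over the whole range of abundance, and the dashed line marks the median of all genes at -0.11.

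The split between higher and lower calls depended on the scaling and on which libraries were fitted. With median-of-ratios scaling, the median of all genes moved to -0.03 and 927 of 1332 calls (69.6%) were higher, against 55.7% on the deposited scale, and edgeR's quasi-likelihood test gave 850 of 1232 (69%). Without CK-2 the count was 780 (557 higher and 223 lower), without DBSi-2 it was 855 (545 and 310), without DBSi-3 it was 731 (489 and 242), and with only the CK and DBSi libraries in the fit it was 778 (522 and 256). Among the 1347 calls, 559 (414 higher and 145 lower) were called whichever of the 15 libraries was left out. A gene enters the test through its own high libraries in some cases. Leaving out the genes that passed the filter on low values only with the help of CK or DBSi libraries left 1291 calls, 716 higher and 575 lower, among 21906 genes.

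Among called genes whose CK and DBSi libraries did not overlap, the 2 largest rises in mean CPM were in Glyur000045s00009984 and Glyur000217s00014862. Glyur000045s00009984 stood at 63.8, 255 and 166 CPM in CK-1, CK-2 and CK-3 and at 2202, 1844 and 2229 CPM in DBSi-1, DBSi-2 and DBSi-3. All DBSi libraries lay above every other library of the series, of which the highest was DSi-1 at 821 CPM. The mean was 162 ± 96 CPM in CK and 2092 ± 215 CPM in DBSi (SD, n = 3), 12.9-fold higher, with a log2 difference of 3.89 (SE 0.45, limma adjusted p = 0.000223). It differed from the means of 299 ± 74 CPM in DB and 467 ± 307 CPM in DSi (SD, n = 3) as well (limma adjusted p = 0.0031 and 0.0148), and its call was kept in all 29 alternatives tried.

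Glyur000217s00014862 stood at 1303, 789 and 1483 CPM in the CK libraries and at 3290, 2610 and 2526 CPM in the DBSi libraries. The groups did not overlap, but D, at 1890, 2122 and 2252 CPM, also lay above all CK libraries. DBSi was 2.36-fold higher than CK, with a log2 difference of 1.28 (SE 0.34, limma adjusted p = 0.0404). Its difference from D was 0.42 on the log2 scale (SE 0.34, limma adjusted p = 0.541), so DBSi was not shown to differ from drought alone for this gene. The call against CK was kept in 16 of 29 alternatives, and it was lost without CK-1, CK-2 or any DBSi library, and also without D-1, D-3, DB-1 or DSi-2. It was lost with a replicate block as well (limma adjusted p = 0.0717), with CK and DBSi alone in the fit (0.075), with no filter (0.0865) and with a minimum log2 difference of 1.

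Among called genes whose groups did not overlap, the 2 largest falls in mean CPM were in Glyur001069s00022473 and Glyur000574s00030981. Glyur001069s00022473 stood at 2478, 2821 and 3153 CPM in CK and at 1054, 846 and 1091 CPM in DBSi. Levels in D, at 2757, 2295 and 3230 CPM, overlapped those of CK, and the DB and DSi libraries lay between 1347 and 2563 CPM, above all DBSi libraries. The differences of DBSi from DB and from DSi did not pass the test (limma adjusted p = 0.352 and 0.0586). The means of CK and DBSi were 2817 ± 337 and 997 ± 132 CPM (SD, n = 3), 2.83-fold lower in DBSi. The log2 difference was -1.5 (SE 0.24, limma adjusted p = 0.00185), and the call was kept in 28 of 29 alternatives, all but a minimum log2 difference of 1.

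Glyur000574s00030981 stood at 2115, 1878 and 1877 CPM in CK and at 795, 1364 and 672 CPM in DBSi. Here D was the highest group, at 2567, 2587 and 2615 CPM, and drought alone and drought with the combined treatment lay on opposite sides of the watered level. The difference of D from CK did not pass the test (log2 difference 0.41, SE 0.26, limma adjusted p = 0.771). DBSi was 2.07-fold lower than CK (log2 difference -1.12, SE 0.26, limma adjusted p = 0.0221). That call was kept in 21 of 29 alternatives. It was lost without CK-1, CK-2, DBSi-1 or DBSi-3, in edgeR (adjusted p = 0.056), with no filter (limma adjusted p = 0.0568), with CK and DBSi alone in the fit (limma adjusted p = 0.101) and with a minimum log2 difference of 1.

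The question of which genes left both the watered and the droughted level was put to a single test, in which DBSi had to differ from CK and from D in the same direction. It called 634 genes (2.8% of those tested), 505 higher (2.23%) and 129 lower (0.569%). For these genes the median absolute log2 difference from CK was 1.79 in DBSi and 0.21 in D. The count was 505 without CK-2 and 385 without DBSi-3.

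Glyur000392s00023197 led the rises by p. It stood at 27.5, 18.8 and 16 CPM in CK, at 20.1, 22.7 and 15.2 CPM in D and at 181, 137 and 155 CPM in DBSi. CK and D overlapped, and DBSi lay above both. DBSi was 7.59-fold higher than CK and 8.15-fold higher than D (log2 differences 2.89 and 2.97, SE 0.25 each; adjusted p of the combined limma test 8.56e-05). The means in DB and DSi, 36.4 ± 3.2 and 33.5 ± 13 CPM (SD, n = 3), were above CK by 0.81 and 0.63 on the log2 scale, which did not pass the test (limma adjusted p = 0.242 and 0.528).

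Glyur000190s00015737 stood at 91.6, 68.4 and 54.3 CPM in the DBSi libraries. Every other library of the series lay between 4.86 and 11 CPM, and neither DB nor DSi was shown to differ from CK (limma adjusted p = 0.766 and 0.85). It was 9.28-fold higher in DBSi than in CK (log2 difference 3.08, SE 0.27; adjusted p of the combined limma test 8.56e-05).

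Glyur000008s00001267 led the falls by p. It stood at 650.5, 1473 and 730 CPM in CK, at 764, 567 and 987 CPM in D and at 91.6, 68.7 and 80.1 CPM in DBSi. D overlapped CK, and every treated library lay below both. It was 11.9-fold lower in DBSi than in CK (log2 difference -3.46, SE 0.27; adjusted p of the combined limma test 8.56e-05). DB and DSi were lower than CK too, at 151 ± 10 and 220 ± 26 CPM (SD, n = 3; limma adjusted p = 0.00207 and 0.0132). DBSi was lower than DSi (log2 difference -1.44, SE 0.27, limma adjusted p = 0.0122), and its difference from DB, -0.91 (SE 0.27, limma adjusted p = 0.12), did not pass the test.

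Glyur000131s00012966 was the next of the falls. It stood at 246, 275 and 257 CPM in CK, at 265, 288 and 222 CPM in D and at 97.6, 95.8 and 116 CPM in DBSi. The fall was 2.51-fold from CK (log2 difference -1.33, SE 0.15; adjusted p of the combined limma test 0.000301). DB and DSi, at 189 ± 8.3 and 186 ± 30 CPM (SD, n = 3), lay between, and DBSi was lower than either (limma adjusted p = 0.0045 and 0.00829). All 4 genes kept their calls in the 28 alternatives tried for this test.

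**Figure D2:**
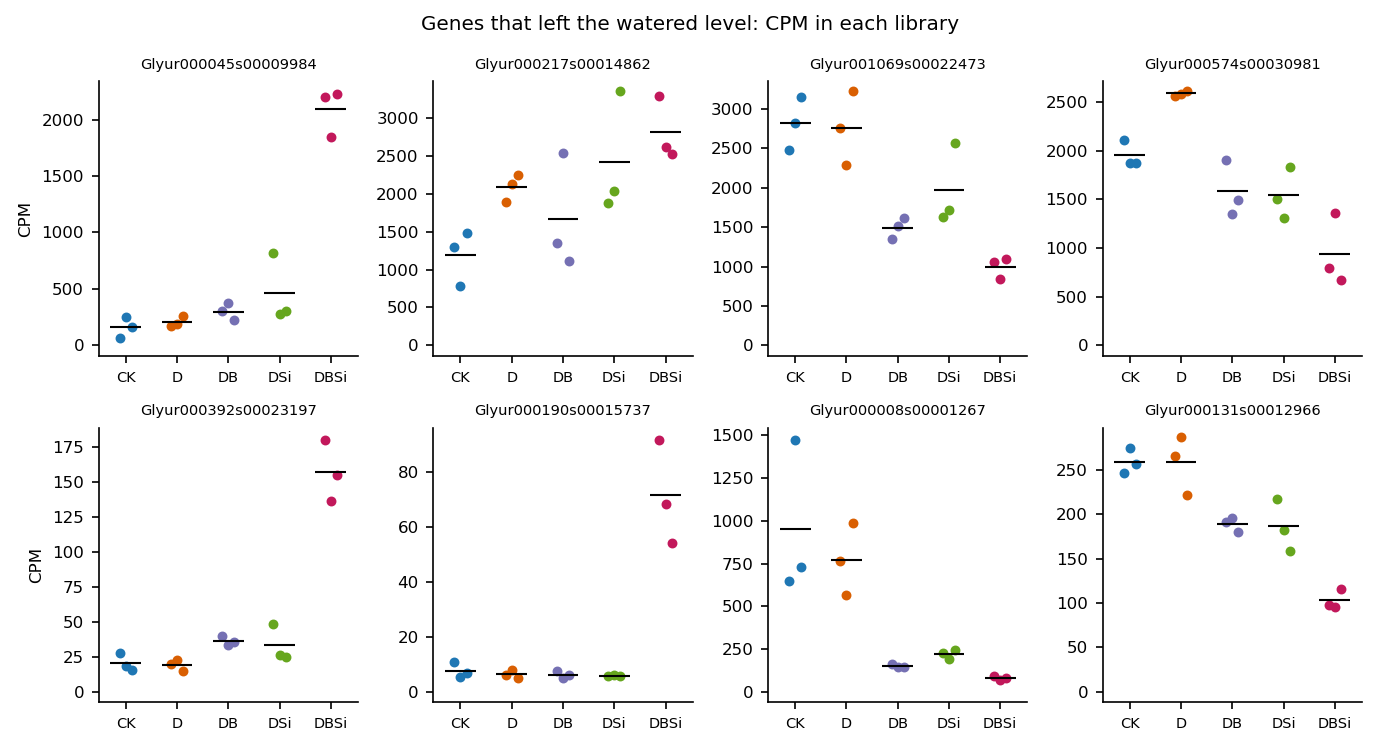
CPM in each library (y axis) of the 8 genes named so far, by group (x axis); points are libraries and lines are group means. In Glyur000190s00015737 the DBSi libraries, at 54.3 to 91.6 CPM, stand alone. In Glyur000008s00001267 the DB and DSi means, 151 and 220 CPM, lie above the DBSi libraries and below those of CK and D.

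The differences that chose the 1347 genes were between DBSi and CK, and the D, DB and DSi libraries entered only through the filter and the shared estimate of spread. The groups with a single treatment were compared with D. Among the 750 genes higher in DBSi than in CK, the median log2 difference from D was 0.27 in DB and 0.41 in DSi, while over all tested genes it was -0.06 and 0.07. The level in DSi was above that in D for 644 of the 750 genes (85.9%), against 59% of all tested genes, and the level in DB for 546 (72.8%), against 44.3%. Among the 597 lower genes, the median difference from D was -0.31 in DB and -0.19 in DSi. The level in DB was above that in D for 28.6% and the level in DSi for 31.5% of them. Both comparisons share the D libraries, so they are not independent of each other, and no test is attached. The mean was highest in DBSi for 717 of the 750 higher genes (95.6%, against 21.2% of all tested genes), and lowest in DBSi for 519 of the 597 lower genes (86.9%, against 28.3%). All 3 DBSi libraries lay above the 12 other libraries in 567 of the 750 genes, where 3.54% of all tested genes did so. They lay below the 12 others in 140 of the 597, where 1.24% of all tested genes did so. The DBSi libraries helped to choose these genes, so these last shares are descriptions.

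Being at the watered level was tested separately, because a gene that is not called different has not been shown to be the same. Of the 22654 genes, 9938 (43.9%) were shown to lie within 2-fold of CK in DBSi (limma, adjusted p below 0.05). The bound was set on CPM + 1, with a one-sided test at each side. A further 11406 genes (50.3%) were shown neither to differ nor to lie within that bound, and 37 genes met both criteria, being called different by less than 2-fold. The answer depended on abundance. Of genes with a mean below 10 CPM, 21.7% were shown within the bound, and of genes at 10 to 100 CPM and at 100 CPM or more, 63.5% and 65.9%. The share called different was 3.54%, 7.86% and 9.58%. The median half-width of the 95% interval of the log2 difference was 0.87, 0.5 and 0.47 in these classes, so for most genes of low abundance the libraries could not place DBSi within 2-fold. With a bound of 1.5-fold, 0 genes passed in limma, and 4493 had an unadjusted p under 0.05. Because 1 is added to each CPM, genes of few reads fall within such bounds more easily than on CPM itself. With 0.5 added in place of 1, 8422 genes were shown within 2-fold, and with 2 added 14095 were.

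**Figure D3:**
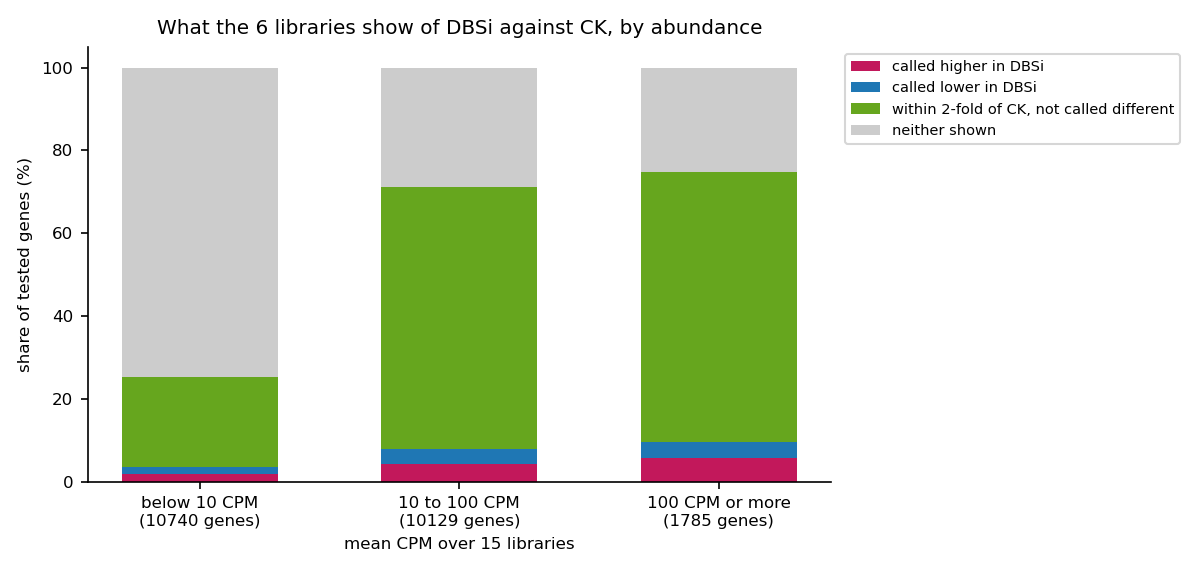
Share of tested genes in percent (y axis) by mean abundance over 15 libraries (x axis), divided by what was shown of DBSi against CK. The share within 2-fold of CK and the share called different are both larger above 10 CPM, and the grey share, 74.8% below 10 CPM, is what the data left undecided.

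A return from a droughted level can be read only where D was called different from CK. In limma 11 genes (0.0486% of those tested) were lower in D than in CK and 0 were higher. At an unadjusted p under 0.05, 1374 were lower and 432 higher. DESeq2 called 98, of which 8 were higher, edgeR called 5, all lower, and limma fitted to CK and D without the other groups called 0 genes. Under a test that asks for D to differ from both CK and DBSi in the same direction, 0 genes passed in limma (smallest adjusted p = 0.699) and 0 in edgeR, and 7 passed in DESeq2, 6 of them lowest in D. At an unadjusted p under 0.05 the limma test listed 546 genes (2.41% of those tested), 388 lower and 158 higher in D. The opposite pattern, CK apart from D and DBSi alike, passed for 6 genes (0.0265%), all lower in both droughted groups, and 702 had an unadjusted p under 0.05, 578 of them lower. It was called for 3 genes without CK-2, for 1 without DBSi-2, for 13 without CK-1 and for 1 in edgeR.

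All 6 genes of that opposite pattern are among the 11 lowered in D. Against CK, DBSi was called lower for 9 of the 11 (against 2.64% of all tested genes), was shown to lie within 2-fold of CK for 1 (against 43.9%) and was not settled for 1. D against CK and DBSi against CK share the CK libraries and are not independent.

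**Figure D4:**
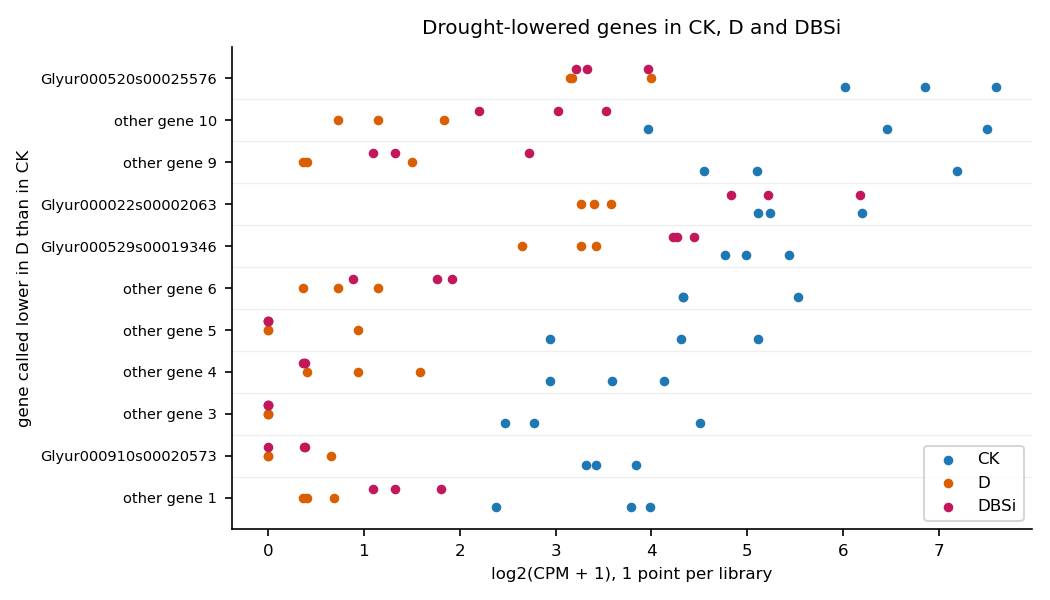
Levels as log2(CPM + 1) (x axis) of the 11 genes called lower in D than in CK (y axis, ordered by the CK mean), with a point for each library of CK, D and DBSi. In Glyur000520s00025576 the DBSi points lie on those of D, and in Glyur000022s00002063 they overlap those of CK.

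In Glyur000910s00020573 and Glyur000520s00025576, DBSi lay below CK and was not shown to differ from D. Glyur000910s00020573 stood at 13.3, 9.68 and 9 CPM in CK, and its levels were 0.573, 0 and 0 CPM in D and 0.3, 0 and 0.31 CPM in DBSi. It had 106 reads over the CK libraries and 2 over each of D and DBSi. The ratio of CK to DBSi was 53.1 with a 95% counting interval from 14.3 to 444, and the ratio of CK to D was 51.8 with an interval from 14 to 433. DB and DSi, with 2 and 4 reads in all, were as low, so the gene was nearly silent in every droughted library. The adjusted p of the combined limma test was 0.00157, and the call was lost in edgeR and with a filter at 5 CPM.

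Glyur000520s00025576 was more abundant. It stood at 192, 64 and 114 CPM in CK, at 8.03, 7.9 and 14.9 CPM in D and at 9.01, 8.27 and 14.6 CPM in DBSi. The DBSi libraries fell among those of D, and DBSi minus D was 0.06 on the log2 scale (SE 0.37, limma adjusted p = 0.955). CK was 12-fold above D and 11.6-fold above DBSi (adjusted p of the combined limma test 0.00427). DB and DSi lay at 16 ± 3.2 and 15 ± 5.5 CPM (SD, n = 3) and were lower than CK too (limma adjusted p = 0.0111 and 0.0121). The call was lost without DBSi-2 and with CK, D and DBSi alone in the fit.

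Glyur000022s00002063 was the gene of the 11 that was shown at the watered level. It stood at 72.5, 36.7 and 33.7 CPM in CK, fell to 8.6, 9.54 and 10.9 CPM in D and stood at 27.3, 36.2 and 71.4 CPM in DBSi. CK and DBSi overlapped, and every D library lay below both. D was lower than CK (log2 difference -2.1, SE 0.33, limma adjusted p = 0.0381), DBSi was higher than D (1.99, SE 0.33, limma adjusted p = 0.00215), and DBSi minus CK was -0.11 with a 95% interval from -0.82 to 0.6 (limma adjusted p of the 2-fold bound 0.0261). The combined test of D against both groups did not pass for it (adjusted p = 0.699). The 2-fold result was lost without any CK library or without DBSi-3, with adjusted p from 0.0506 to 0.115, with CK and DBSi alone in the fit (adjusted p = 0.0655) and with a bound of 1.5-fold. The DB libraries, at 86.7, 58.3 and 90.3 CPM, and the DSi libraries, at 29.9, 28.5 and 22.3 CPM, also lay above every D library, so all treated groups stood above drought alone.

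Glyur000529s00019346 was the gene that was not settled. It stood at 30.7, 42.1 and 26.1 CPM in CK, at 8.6, 5.26 and 9.72 CPM in D and at 20.7, 18.3 and 17.7 CPM in DBSi, a level between the other 2 groups that overlapped neither. DBSi was higher than D (log2 difference 1.2, SE 0.31, limma adjusted p = 0.0338), and DBSi minus CK was -0.75 with a 95% interval from -1.41 to -0.09 (limma adjusted p = 0.178 for a difference and 0.282 for the 2-fold bound). DB and DSi lay at 11.4 ± 3.4 and 10.2 ± 4.5 CPM (SD, n = 3), close to D.

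For the pattern of D apart from CK and DBSi, the genes nearest to passing are given although their combined tests did not pass, and they were chosen after their values were seen. After Glyur000022s00002063, the next gene lowest in D was Glyur004130s00046229. It stood at 23, 28.7 and 37.7 CPM in CK, at 9.75, 8.88 and 10.6 CPM in D and at 29.1, 33.4 and 52.4 CPM in DBSi. D lay below all other libraries of both groups, and DBSi overlapped CK (adjusted p of the combined limma test 0.699, of the 2-fold bound 0.0365).

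Among genes highest in D, Glyur001572s00035827 stood at 228, 257 and 262 CPM in CK, at 428, 351 and 422 CPM in D and at 171, 179 and 156 CPM in DBSi. DBSi passed below the watered level but was shown within 2-fold of it (limma adjusted p of the 2-fold bound 0.0135). DBSi was 1.48-fold lower than CK (log2 difference -0.56, SE 0.14, limma adjusted p = 0.0316) and 2.38-fold lower than D (-1.24, SE 0.14, limma adjusted p = 0.000149). D minus CK, at 0.68 (SE 0.14, limma adjusted p = 0.159), did not pass. Glyur000220s00014769 stood at 23.9, 29.3 and 20.9 CPM in CK, at 34.1, 36.5 and 37.1 CPM in D and at 25.5, 25.7 and 22.7 CPM in DBSi. DBSi lay inside the range of CK, with a difference of 0.005 on the log2 scale and a 95% interval from -0.33 to 0.34 (limma adjusted p of the 2-fold bound 0.000737). The difference of D from CK did not pass (limma adjusted p = 0.388). The D mean was 1.61-fold above CK in Glyur001572s00035827 and 1.45-fold above it in Glyur000220s00014769. Both are under 2-fold too, so for these genes the 2-fold bound cannot tell a return from no move in D. The genes were also picked because D overlapped neither CK nor DBSi.

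**Figure D5:**
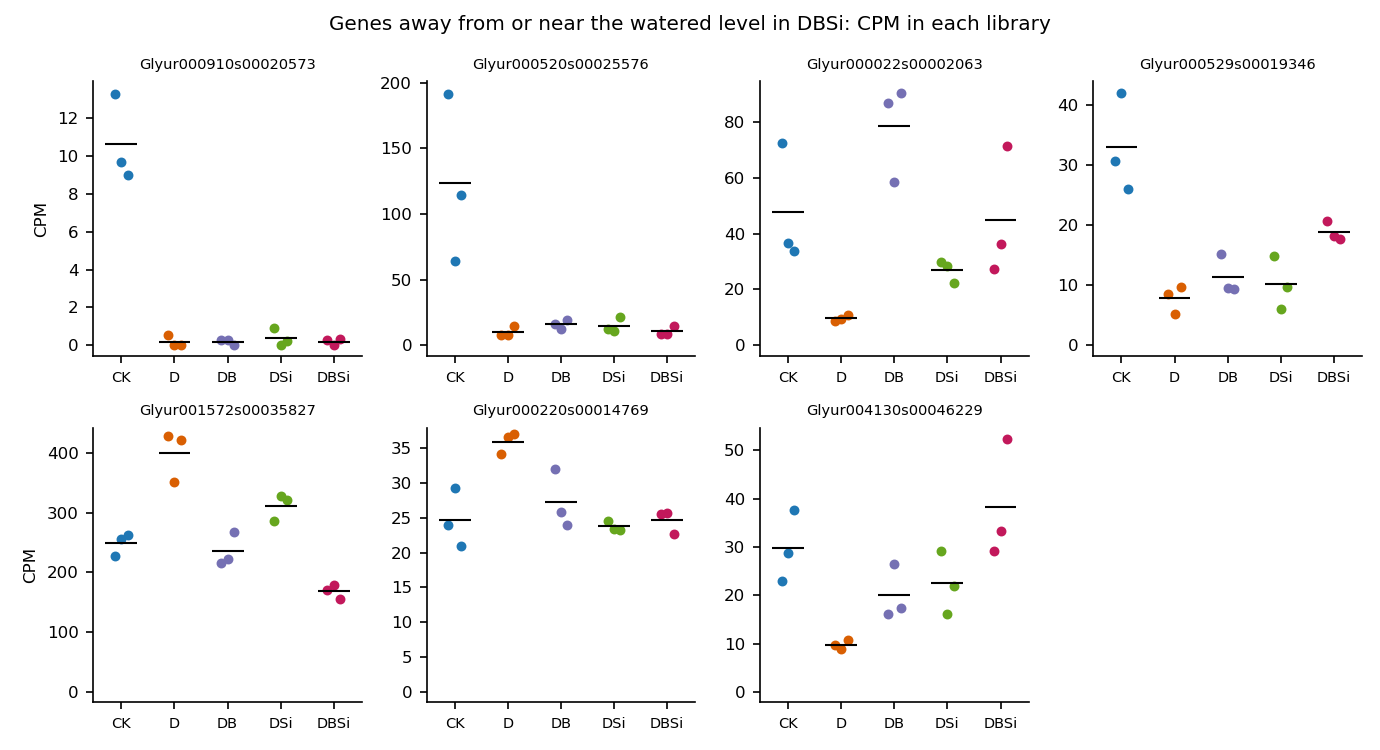
CPM in each library (y axis) of 7 genes, by group (x axis); points are libraries and lines are group means. The first 2 genes are low in all droughted groups, Glyur000022s00002063 is lowest in D at 8.6 to 10.9 CPM with DBSi overlapping CK, and Glyur001572s00035827 is highest in D at 351 to 428 CPM with DBSi below CK.

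The isoform table gave a second readout of the same reads. Of 35504 isoforms tested, DBSi differed from CK at 1643 (4.63%), 1052 higher (2.96%) and 591 lower (1.66%; limma). Isoforms with an ONT ID made up 67.7% of these calls and 65.8% of all isoforms tested, and the files do not tie most of them to a gene ID, so only isoforms that carry the gene's own ID could be set beside the genes above. For Glyur000045s00009984 that isoform rose from 137 ± 78 to 1481 ± 125 CPM (SD, n = 3; log2 difference 3.62, limma adjusted p = 0.000571). It held 84.8% of the gene's CPM in CK and 70.8% in DBSi. For Glyur000574s00030981 it held 99.8% in CK and 99.6% in DBSi and fell with the gene (limma adjusted p = 0.0179). For Glyur001069s00022473 it held only 0.0711% and 0.243%, so the fall of that abundant gene was not in that isoform. Which isoforms held the fall could not be told. The single isoform listed under Glyur000910s00020573 and the single isoform listed under Glyur000520s00025576 held 100% of each gene's reads in both groups.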

How the data were processed

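The authors deposited CPM values per gene and per isoform, 1 column to a library per the file headers. minimap2 is named in the submitters' processing notes. The sources used here do not give the genome build, the counting tool, the version of minimap2 or how reads of near-identical genes were assigned. Values of close gene copies may therefore be uncertain. Per the labels' protocols, 1 µg of RNA and 14 PCR cycles were used before nanopore sequencing. No molecular identifiers are named in the labels, so PCR reads may not be independent molecules. The counting intervals of read ratios cover counting error only. The intervals of log2 differences come from the limma fit and reflect library-to-library spread. For genes and isoforms alike, 100% of values were whole multiples of 1 read (tolerance 0.01), and 50341895 reads were recovered.

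Log2(CPM + 1) values were fitted with limma 3.58.1 in R 4.3.3 on all 15 libraries, using a term for group and a trend on mean intensity. Tests were two-sided, and p-values were adjusted by Benjamini-Hochberg over all genes tested. A log2 difference on this scale understates the change of low genes, and folds are ratios of mean CPM. Combined tests took the larger of 2 p-values for differences in the same direction. The 2-fold bound was tested as an absolute log2 difference under 1. The recovered reads were also tested with edgeR 4.0.16 and DESeq2 1.42.0. The limma and edgeR tests of genes were tested on simulated data.

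Members, lists and tests were chosen with earlier results of these data known. For DBSi against CK and the combined tests, named genes passed the threshold, did not overlap between the groups said to differ and reached 10 CPM in the higher group. They were the 2 in each direction with the largest difference of mean CPM (DBSi against CK) or the smallest combined p, passing over genes already named. Of the genes called in D, the 2 nearest the watered level were named, and genes nearest to passing for D apart were added after their values were seen. Deviations of same-numbered CK and DBSi libraries correlated at -0.01, -0.08 and -0.02, and those of CK and D at 0.02, -0.19 and -0.07. Those of DBSi and D correlated at 0.23, 0.33 and -0.06. The numbers were not taken as pairs, and counts with a replicate block are given below.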

Additional observations from a re-analysis of the deposited data

How the results depend on the processing

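Leaving out each library in turn gave 731 to 1455 genes for DBSi against CK, 385 to 653 for DBSi apart from CK and D, 1 to 13 for CK apart from D and DBSi, 0 throughout for D apart from CK and DBSi, 7324 to 10211 within 2-fold of CK, 3 to 23 for D against CK and 881 to 1656 isoforms. A minimum log2 difference of 1 left 130 genes for DBSi against CK, 161 isoforms and 0 genes for D against CK (107 at an unadjusted p under 0.05). With only the compared groups, limma gave 778 genes for DBSi against CK, 701 isoforms, 1 gene with CK apart and 0 for D against CK (1529 at an unadjusted p under 0.05). CK apart from D and DBSi gave 26 genes in DESeq2, 1 in edgeR, 3 with a pseudocount of 0.5 and 1 with a filter at 5 CPM. D against CK gave 98 genes in DESeq2, 5 in edgeR and 4 with a filter at 5 CPM, and D apart from CK and DBSi gave 7 in DESeq2. edgeR called 1083 isoforms. Without a filter, 17261 of 30197 genes lay within 2-fold on the scale of CPM + 1, 6411 of them higher and 9323 lower. The rest showed no difference, as genes without a read in either group do, so this count is not one of genes shown at the watered level. With a bound of 1.5-fold, 0 of the filtered genes passed. A replicate block gave 1184 genes for DBSi against CK, 554 for DBSi apart, 9629 within 2-fold and 2 for CK apart. Between CK and DBSi, no library resembled its own number most, so the block is given without reading a pairing from it. Removing the genes high in CK-2 alone and rescaling, chosen after the data were seen, left 1348 genes for DBSi against CK. The causes of these moves were not tested.

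Depth limits the low genes most, since 1 CPM is 4 to 5 reads. edgeR and DESeq2 have no 2-fold bound here.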

Other observations

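The genes that set CK-2 apart mostly failed the filter on low values and so stand outside the comparisons. Genes that were not tested took 1.31% of the reads of CK-2 and 0.0929 to 0.204% in the 14 other libraries. The most abundant of them in CK-2 was Glyur002183s00035941, at 3021 CPM in CK-2, 76.1 CPM in CK-3 and 0 in CK-1, and at most 0.601 CPM in any droughted library. The next was ONT.17894, at 1633 CPM in CK-2, 31.1 CPM in CK-3 and 0 in CK-1, and at most 0.3 CPM in any droughted library. Both were thus seen in the same 2 watered libraries and nearly nowhere else. Of the untested genes, 49 reached 10 CPM in CK-2, 11 in CK-1 and 12 in CK-3, and between 0 and 4 did so in each droughted library.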
